A study of Homo sapiens with 24 samples.

Results

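IER3 (immediate early response 3, also called IEX-1) was followed across 4 Hodgkin lymphoma (HL) cell lines with and without AEZS-136, a small molecule that inhibits both PI3K and ERK. The gene was chosen by the measured responses to AEZS-136 themselves, lower in L-540 and higher elsewhere, so its levels and responses are described with their errors and were not tested. It is read by 1 named probe, ILMN_1682717, of 47323 probes on each of 24 Illumina arrays. The probe was among the 20027 that passed the detection filter (3 or more arrays with a detection p under 0.01) and was itself detected on all 24 arrays. L-540 and SUP-HD1 are the cell death-sensitive lines, and KM-H2 and L-428 the cell death-resistant lines. Each line was cultured for 24 hours with 10 μM AEZS-136 or as a control with the DMSO vehicle, which gave 8 groups of 3 arrays. All 4 are established lines grown in culture, without the inflammatory cells that surround Hodgkin cells in a lymph node. The labels number the replicates 1 to 3 and do not say that they came from separate cultures, so errors measure the spread between these samples, which may be technical.

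IER3 is an immediate early gene whose transcript is short-lived and is rapidly induced by growth factors, cytokines and cell stress. Its promoter is known to respond to NF-κB and p53, and its protein is a substrate of ERK. IER3 in turn prolongs ERK phosphorylation by interfering with the B56 subunits of the phosphatase PP2A, binds RELA and restrains NF-κB transcription, and targets the inhibitor of the mitochondrial F1Fo-ATPase, ATP5IF1, for degradation. Depending on the cell type and stimulus, it protects against or favors cell death.

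The gene lies on chromosome 6 at 30743199 to 30744547 (GRCh38.p14), and its lower end overlaps the long noncoding RNA IER3-AS1 (30742963 to 30743673), for which no named probe was held. To place 2 genes that recur below, sequences of 300 bases around annotated starts (RefSeq, GRCh38.p14) are shown for NFKBIA, which encodes the NF-κB inhibitor IκBα, and CD83, a surface glycoprotein of dendritic cells and activated B cells whose response was the closest to that of IER3. Capitals mark every match to the NF-κB consensus (the κB element, 10 bases long, searched on both strands), and both sequences read 5′ to 3′ on the strand of the gene.
NFKBIA (chr14:35404700-35404999, minus strand): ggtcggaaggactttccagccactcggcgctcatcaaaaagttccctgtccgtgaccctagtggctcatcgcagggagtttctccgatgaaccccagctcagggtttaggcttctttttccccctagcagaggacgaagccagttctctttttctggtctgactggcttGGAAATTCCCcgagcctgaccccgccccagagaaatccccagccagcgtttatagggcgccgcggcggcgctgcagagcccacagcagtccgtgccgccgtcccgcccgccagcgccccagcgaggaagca
CD83 (chr6:14117522-14117821, plus strand): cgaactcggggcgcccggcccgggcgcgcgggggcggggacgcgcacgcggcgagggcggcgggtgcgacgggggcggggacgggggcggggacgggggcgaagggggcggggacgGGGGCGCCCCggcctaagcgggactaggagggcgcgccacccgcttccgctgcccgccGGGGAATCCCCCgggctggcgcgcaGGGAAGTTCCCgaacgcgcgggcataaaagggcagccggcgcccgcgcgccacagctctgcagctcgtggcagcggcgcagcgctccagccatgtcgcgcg

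The NFKBIA window held 1 stretch in capitals and the CD83 window 3, made of 9 overlapping matches over both strands. The other CD83 window held 0 matches, and of 35116 windows of the same length 11.3% held at least 1. A match of letters is not a measured binding site.

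The arrays were alike in brightness and detection. The mean signal per array ranged from 255.6 to 360.9, with AEZS-136-treated L-428 replicate 3 the dimmest, and 29.6% to 33.7% of probes were detected. Of 7 Hodgkin markers, FUT4, IRF4, TRAF1 and BATF3 were detected on all 24 arrays, and the brightest probe of TNFRSF8 (CD30) on all 6 L-540 arrays and on 0 arrays of the other lines. Detection of 1 probe does not show whether those lines lack CD30. At most 1 of 5 B lineage markers with a named probe was detected on all 6 arrays of a line, and 0 of 4 epithelial markers. KM-H2 arrays detected 3 of 4 myeloid markers and 1 of 4 fibroblast markers (COL1A1), and L-540 arrays 2 of 5 T lineage markers (CD2 and CD247). These lineages were not particular to those lines. CD2 was also detected on all 6 SUP-HD1 arrays, the T lineage marker CD3D on all 6 KM-H2 arrays, and the myeloid marker CSF1R on all 6 arrays of L-540 and of SUP-HD1. The epithelial marker CDH1 was detected on 4 of 6 arrays of SUP-HD1 and of L-428. RNA was taken from whole cultures, in which fewer cells of one kind and less RNA per cell cannot be told apart.

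IER3 was most abundant in L-540 and was lower there with AEZS-136, whereas it was higher with AEZS-136 in the other 3 lines. In control L-540 cells the deposited signals, which are linear and not normalized, were 2432, 2458 and 2072. In AEZS-136-treated L-540 cells they were 1056, 1244 and 1276. Every treated array was below every control array. On the scale used for all further values, log2 of the signal after quantile normalization, L-540 controls were at 11.08, 11.07 and 10.86 and treated cells at 10.11, 10.22 and 10.15. The log2 fold change was -0.84 ± 0.078 (limma standard error, n = 3 and 3), a level 1.8-fold lower.

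SUP-HD1, the other cell death-sensitive line, had the lowest IER3. Control signals were 245.6, 261.5 and 228.0, and signals with AEZS-136 were 264.5, 276.3 and 344.4. Normalized log2 levels were 7.94, 7.88 and 7.88 in controls and 8.14, 8.16 and 8.24 in treated cells. The groups did not overlap, and the change was the smallest of the 4 lines, 0.28 ± 0.078 on the log2 scale (1.22-fold higher). It lay under the minimum of 0.4 that was used to call changes elsewhere. The text of the study describes IER3 as downregulated by AEZS-136 in SUP-HD1 as in L-540, while its supplement lists no change for SUP-HD1. The arrays did not show a decrease in this line.

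In KM-H2, control signals were 395.3, 379.7 and 425.1 and AEZS-136 signals 533.8, 667.5 and 668.8. Log2 levels were 8.68, 8.68 and 8.80 in controls and 9.10, 9.38 and 9.20 after treatment. All 3 treated arrays were higher than the 3 controls, by 0.51 ± 0.078 on the log2 scale (1.42-fold). In L-428, signals were 347.7, 343.0 and 335.6 in controls and 639.0, 485.1 and 388.5 with AEZS-136. Its log2 levels were 8.59, 8.44 and 8.48 in controls and 9.20, 9.06 and 8.96 in treated cells. Again the groups did not overlap, and the log2 fold change was 0.57 ± 0.078 (1.49-fold). The lowest treated signal, 388.5, came from the dimmest array, whose normalized level stayed above the 3 controls.

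**Figure D1:**
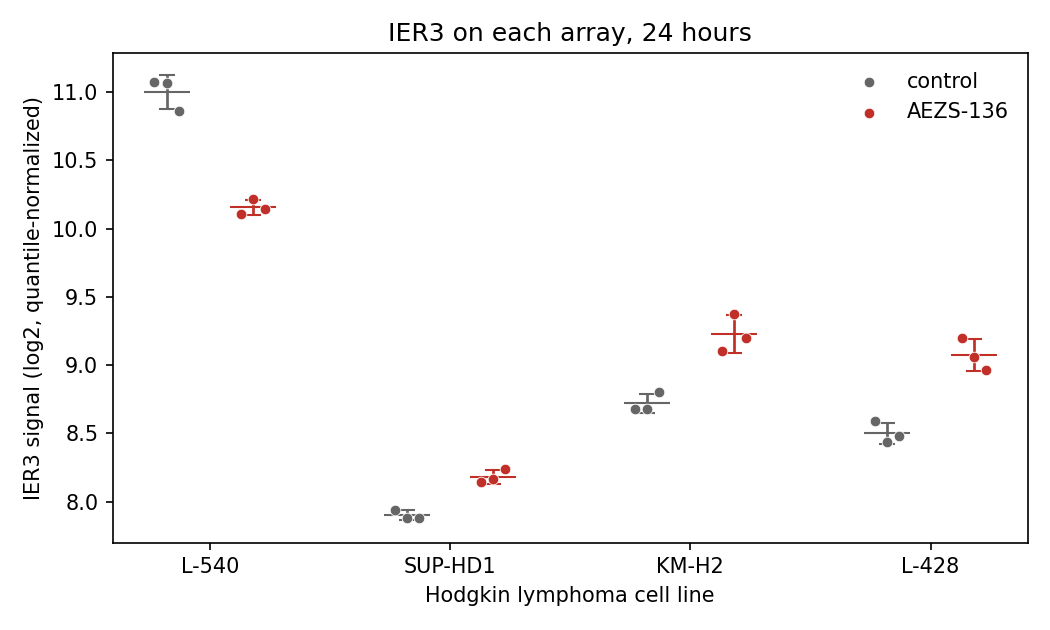
IER3 signal (log2, quantile-normalized) on each of the 24 arrays, by cell line and treatment. Points are arrays, wide bars are group means and error bars are SD (n = 3). Treated L-540 arrays lie below their controls, and treated arrays of the other lines lie above theirs.

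Groups that do not overlap were common on these arrays. Of the tested probes, 22.3% had all treated L-540 arrays below the controls, and all treated arrays lay above the controls for 18.7% in L-428, 15.9% in KM-H2 and 18.8% in SUP-HD1. The size of the IER3 response placed it further out, though the gene was chosen by these responses and its ranks are no test. Among all tested probes, its log2 fold change stood at the percentile 2.43 in L-540 (rank 487 from the most downregulated), 89.2 in SUP-HD1 (rank 2164 from the most upregulated), 97.3 in KM-H2 (rank 550) and 96.7 in L-428 (rank 660). For scale, the limma test was passed by 19.5%, 12.8%, 7.9% and 13.3% of the tested probes in the same order of lines. A probe passed, here called higher or lower, when its log2 fold change was at least 0.4 in size and its p, adjusted after Benjamini-Hochberg, was under 0.05. L-540 had 9.59% of probes called higher and 9.96% lower, SUP-HD1 6.51% and 6.26%, KM-H2 4.42% and 3.48%, and L-428 6.62% and 6.69%. Where 4 values are given without the names of the lines, they follow this order.

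The 4 responses of IER3 differed most between L-540 and the rest. The response in SUP-HD1 exceeded that in L-540 by 1.13 ± 0.11 on the log2 scale, that in KM-H2 by 1.35 ± 0.11 and that in L-428 by 1.42 ± 0.11. The 3 lines in which IER3 was higher with AEZS-136 lay closer together. KM-H2 exceeded SUP-HD1 by 0.22 ± 0.11, L-428 exceeded SUP-HD1 by 0.29 ± 0.11, and L-428 exceeded KM-H2 by 0.07 ± 0.11, which is smaller than its standard error. Set as classes, the mean response of the resistant lines exceeded that of the sensitive lines by 0.82 ± 0.078, at the percentile 99.3 of all tested probes. This mean joins a decrease in L-540 with an increase in SUP-HD1, so the sensitive class was not uniform for IER3. The gene was chosen by these responses, so its percentile is a description and no measure of rarity.

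**Figure D2:**
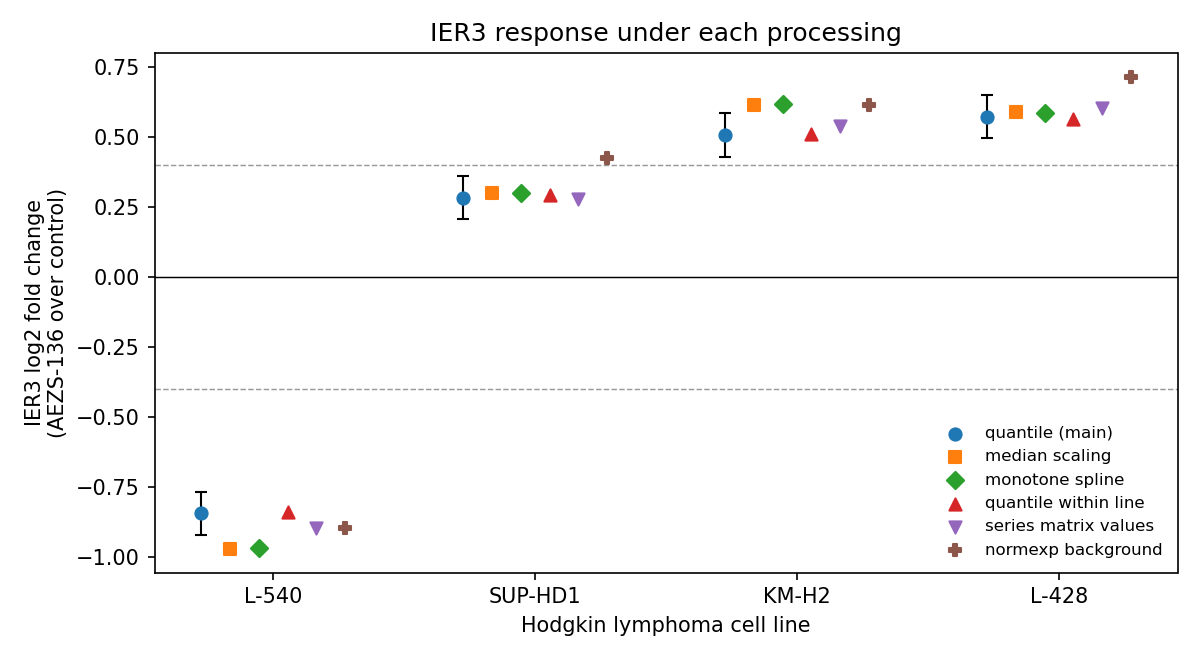
IER3 log2 fold change (AEZS-136 over control) in each line under quantile normalization and 5 other ways of processing the signals. Error bars are the limma standard error of the first setting, and dashed lines mark an absolute log2 fold change of 0.4. L-540 is below 0 and the other lines are above 0 under every setting drawn.

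Before treatment, IER3 levels were ordered L-540, KM-H2, L-428 and SUP-HD1, with group means of 11.002 ± 0.123, 8.72 ± 0.0715, 8.50 ± 0.0778 and 7.90 ± 0.0363 (log2, SD, n = 3). Control L-540 cells were 8.59-fold above SUP-HD1, 5.66-fold above L-428 and 4.86-fold above KM-H2. KM-H2 and L-428 were neighbors 0.22 apart on the log2 scale (1.16-fold), and even their arrays did not overlap. The 2 sensitive lines thus stood at the opposite ends of this order, with the 2 resistant lines between them. By western blot, the study reports that basal IER3 protein was similar across the lines. The arrays measure RNA, and why the 2 measures differ was not tested.

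With AEZS-136 the order of the means was the same and the lines were closer. Means were 10.16 ± 0.0544 in L-540, 9.23 ± 0.139 in KM-H2, 9.07 ± 0.117 in L-428 and 8.18 ± 0.0504 in SUP-HD1 (log2, SD, n = 3). Treated L-540 cells remained above every other group, treated or not, and were 1.91-fold above treated KM-H2, the next in order. Treated KM-H2 and L-428 overlapped, with a difference of 0.15 on the log2 scale (1.11-fold). The distance between the highest and lowest line went from 3.10 in controls to 1.98 with AEZS-136. That distance became smaller for 46.6% of tested probes and by at least as much as for IER3 in 0.484%. IER3 was chosen for a lower response in L-540, its highest line, and a higher one elsewhere. A smaller distance follows from that choice, so this share is a description and no test. Of the variance of IER3 over the 24 arrays, 90.3% lay between lines, 8.64% in the interaction of line and treatment, 0.441% in treatment shared by the lines and 0.581% between replicates, against medians over tested probes of 67.6%, 5.34%, 4.03% and 12%.

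CD83 came closest to the response of IER3 among 11456 other named genes, by the Euclidean distance of the 4 log2 fold changes. Probe ILMN_2328666 gave log2 fold changes of -0.76, 0.22, 0.45 and 0.59 (standard error 0.0805), a distance of 0.121. Its control levels were 8.42, 8.24 and 8.24 in L-540 and its AEZS-136 levels 7.57, 7.55 and 7.49, so that treated arrays were below all controls. In L-428 the levels were 9.87, 10.03 and 10.18 in controls and 10.75, 10.58 and 10.54 with AEZS-136, without overlap in the other direction. The brighter CD83 probe, ILMN_1780582, gave -0.64, 0.25, 0.43 and 0.30 (standard error 0.1), with a smaller change in L-428.

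The likeness of CD83 was in the response and not in the level. Mean control levels of ILMN_2328666 were highest in KM-H2 (11.68), followed by L-428 (10.03), L-540 (8.30) and SUP-HD1 (8.19), and its Pearson r with IER3 over the 8 group means was -0.21. The next smallest distances belonged to TMEM106C (0.432), a transmembrane protein, ZNF586 (0.49), a zinc finger protein, TTF2 (0.517), a factor that releases RNA polymerase II, and H2BC12 (0.529), a histone H2B gene with near-identical copies that its probe may also read. With normexp background correction, EIF4EBP1, a repressor of translation, lay nearer to IER3 than CD83, which came next. The windows around the starts of TMEM106C, ZNF586, TTF2 and H2BC12 held 0 matches to the NF-κB consensus. Only 5 tested probes lay within a distance of 0.5. Since these genes were picked for their likeness to IER3, their values are not tests.

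**Figure D3:**
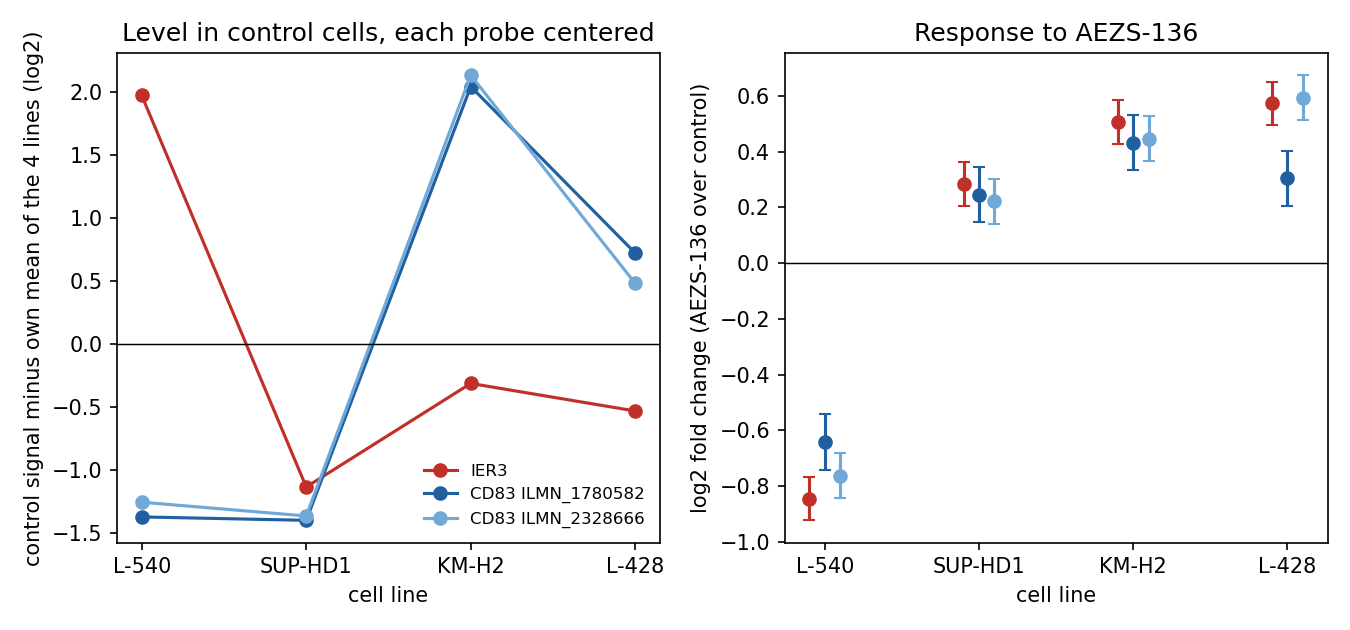
IER3 and the 2 CD83 probes. Left, mean control level in each line minus the mean of the probe over the 4 lines (log2). Right, log2 fold change with AEZS-136 and its limma standard error. The responses lie side by side, most closely for ILMN_2328666, while control levels are highest in L-540 for IER3 and in KM-H2 for CD83.

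By the course of the levels, the genes most like IER3 were others. Over the 8 group means, which the large difference between lines dominates, Pearson r was 0.980 for TANC2, a scaffold protein of synapses, 0.979 for NOA1, a mitochondrial GTPase, 0.978 for EEF1B2, a translation elongation factor subunit, 0.976 for H2BC12 and 0.975 for SLC67A1-AS, an antisense transcript. SLC67A1-AS was detected in L-540 alone, so its r sets L-540 against undetected signal. TANC2 was not detected in SUP-HD1 and was detected on 1 of 3 control arrays in KM-H2 and in L-428. In all, 237 tested probes had an r of at least 0.9 and 102 an r of -0.9 or less, so a high r alone was not rare. H2BC12 was the gene that appeared under both measures. Its probe ILMN_1813314 had control means of 11.13 (L-540), 7.80 (SUP-HD1), 8.67 (KM-H2) and 8.70 (L-428) and log2 fold changes of -0.54, 0.27, 0.07 and 0.57. The brighter H2BC12 probe, ILMN_1796179, gave -0.31, 0.44, 0.23 and 0.90. The brightest EEF1B2 probe, ILMN_2318725, was not the one with the r above. It gave 0.16, 0.04, 0.15 and -0.17, opposite in sign to IER3 in L-540 and L-428.

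Genes whose products IER3 is known to work with were then examined. MCL1, an anti-apoptotic BCL2 relative to which IER3 binds, rose in L-540, where IER3 was lower. Its control levels there were 8.83, 9.05 and 8.77 and its treated levels 9.90, 9.61 and 9.69, without overlap. The log2 fold change was 0.85 ± 0.112 (limma adjusted p = 8.3e-07), and values in SUP-HD1, KM-H2 and L-428 were 0.39, -0.09 and 0.09, none of which passed the test. The SUP-HD1 value passed with the series matrix values (0.41) and with normexp (0.50). ATP5IF1, the F1Fo-ATPase inhibitor, was higher in SUP-HD1 by 0.57 ± 0.0975 (adjusted p = 6.6e-05) and lower in KM-H2 by a log2 fold change of -0.51 (adjusted p = 0.00044). Its levels in KM-H2 were 9.51, 9.51 and 9.54 in controls and 9.15, 9.18 and 8.71 with AEZS-136, whereas L-540 (0.24) and L-428 (-0.29) did not pass. Without AEZS-136-treated KM-H2 replicate 3, the KM-H2 change was -0.35 and did not reach the minimum.

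MAPK3, which encodes ERK1, passed in L-428 alone, with a log2 fold change of -0.48 ± 0.0907 (limma adjusted p = 0.00021). RELB, an NF-κB subunit of the alternative pathway, passed in no line, with values between -0.24 and 0.21. Probes for PPP2R5C, a B56 subunit of PP2A, and NUPR1, a stress-induced chromatin protein, did not pass the detection filter.

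Among the inhibitors and targets of NF-κB, 2 genes were called higher in both resistant lines, where IER3 was higher too. IER3 was also higher in SUP-HD1, where neither gene passed, though 1 of them, GADD45B, did with normexp (0.42). NFKBIA was at 11.84, 12.19 and 12.10 in KM-H2 controls and at 13.39, 13.42 and 13.62 with AEZS-136. In L-428 it was at 11.97, 11.72 and 11.79 in controls and 12.98, 13.17 and 13.30 in treated cells. Every treated array was above the controls in both lines. Log2 fold changes were 1.44 ± 0.119 in KM-H2 and 1.32 ± 0.119 in L-428 (limma adjusted p = 1.6e-09 and 3.8e-09). Values of 0.02 in L-540 and 0.12 in SUP-HD1 did not pass. The difference between classes, 1.31 ± 0.119, passed the test as well (adjusted p = 1.3e-08), as did that of 6.74% of tested probes (3.75% with the higher response in the resistant lines, 2.99% with the lower). This test used the spread between arrays and not the spread between the lines of a class.

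GADD45B, a stress sensor induced by NF-κB, was higher in KM-H2 by 0.95 and in L-428 by 0.74 on the log2 scale (standard error 0.0729, limma adjusted p = 4.1e-10 and 2e-08). It was detected on all 12 arrays of these lines, on 4 of the 6 arrays of L-540 and on 1 of 6 of SUP-HD1, where its changes were -0.03 and 0.14. CFLAR, which encodes the caspase-8 inhibitor c-FLIP, showed another division of the lines. It was higher in L-540 (1.65 ± 0.118, adjusted p = 1.8e-11) and SUP-HD1 (1.05, adjusted p = 2.3e-07), and values in KM-H2 (-0.07) and L-428 (0.35) did not pass. CCL17, the chemokine TARC secreted by Hodgkin cells, was lower in L-428 (-1.46 ± 0.137, adjusted p = 9.5e-09). In KM-H2 it was not detected after treatment and was at least 1.65-fold lower (adjusted p = 7.8e-05), the bound being set by the dimmest probes detected on those arrays. It was not detected in L-540.

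Over the NF-κB list of 24 genes, 18 were tested. Of these, 4 were higher and 1 was lower in L-540, 6 and 1 in SUP-HD1, 3 and 1 in KM-H2, and 4 and 1 in L-428. The share called was 27.8%, 38.9%, 22.2% and 27.8%, beside 19.5%, 12.8%, 7.9% and 13.3% of all tested probes. A list counts the brightest probe of each named gene and the background counts every tested probe, so these shares are unlike. The excess over the background was not tested, here or for the lists below. The list median log2 fold change lay between 0.05 and 0.18 in the 4 lines, though it was 0.01 in L-540 with median scaling or the spline and 0.41 in SUP-HD1 with normexp. Calls were mostly increases in every line, including L-540, in which IER3 was lower.

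For the immediate early and feedback genes of the ERK pathway, 26 of 32 genes were tested and 16 passed in at least 1 line, beside 31.6% of all tested probes. The numbers higher and lower were 7 and 2 in L-540, 4 and 2 in SUP-HD1, 5 and 1 in KM-H2, and 6 and 4 in L-428. Genes with the largest changes were transcription factors of the stress response and a phosphatase. ATF4 was higher in all 4 lines, with log2 fold changes of 1.46, 0.78, 1.99 and 0.82 (standard error 0.0861). KLF6 was higher in all 4 as well, by 1.40, 0.99, 0.61 and 0.65 (standard error 0.0971). ATF3 was higher in L-540, SUP-HD1 and L-428 (1.43, 0.70 and 0.87, standard error 0.097) and its value of 0.35 in KM-H2 did not reach the minimum fold change. In L-540 ATF4, KLF6 and ATF3 thus rose where IER3 was lower, while 2 other genes of the list were lower like IER3 and 17 were not called.

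DUSP5, the nuclear phosphatase of ERK, was called in opposite directions, higher in L-540 by 1.42 ± 0.099 and lower in KM-H2 with a log2 fold change of -0.49, a call that was lost under median scaling (-0.37) and the spline (-0.39). MYC and ETV5, named after their values were seen, were the other members with opposite calls. MYC was lower in L-540 (-0.64), SUP-HD1 (-0.85) and L-428 (-0.57) and higher in KM-H2 (0.41), and ETV5 was lower in SUP-HD1 (-0.46) and higher in KM-H2 (0.53). The MYC call in KM-H2 was lost without control replicate 2 (0.34) or treated replicate 3 (0.35). The list did not share 1 direction, with medians of 0.10, 0.02, 0.04 and 0.00 on the log2 scale, the last of which changed sign between scalings. IER2 and IER3IP1 passed in no line, and IER5, the remaining tested gene of that name, was higher in L-428 alone (0.44 ± 0.0947, limma adjusted p = 0.00082), a call that was lost without treated L-428 replicate 1 (0.36). They are listed for their name.

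Of the ERK cascade and the PP2A phosphatase, 12 of 16 genes were tested and 6 passed in at least 1 line, beside 31.6% of all tested probes. The share called was 25% in L-540, 16.7% in SUP-HD1 and 25% in L-428, where 19.5%, 12.8% and 13.3% of all tested probes were called. PPP2R5A, the B56α subunit, was higher in L-540 and SUP-HD1 (0.48 and 0.62, standard error 0.0831), and PPP2R1B, a scaffold subunit, was lower in L-540 and L-428 (-0.45 and -0.51, standard error 0.0793). MAP2K1, which encodes the ERK activator MEK1, was lower in L-428 (-0.43 ± 0.102). Leaving out control replicate 3 or treated replicate 1 of L-428 took MAP2K1 to -0.39 in both cases, and leaving out L-540 control replicate 3 took PPP2R1B there to -0.39, all under the minimum. The list had 0 calls in KM-H2, where 7.9% of all tested probes were called and IER3 was higher.

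**Figure D4:**
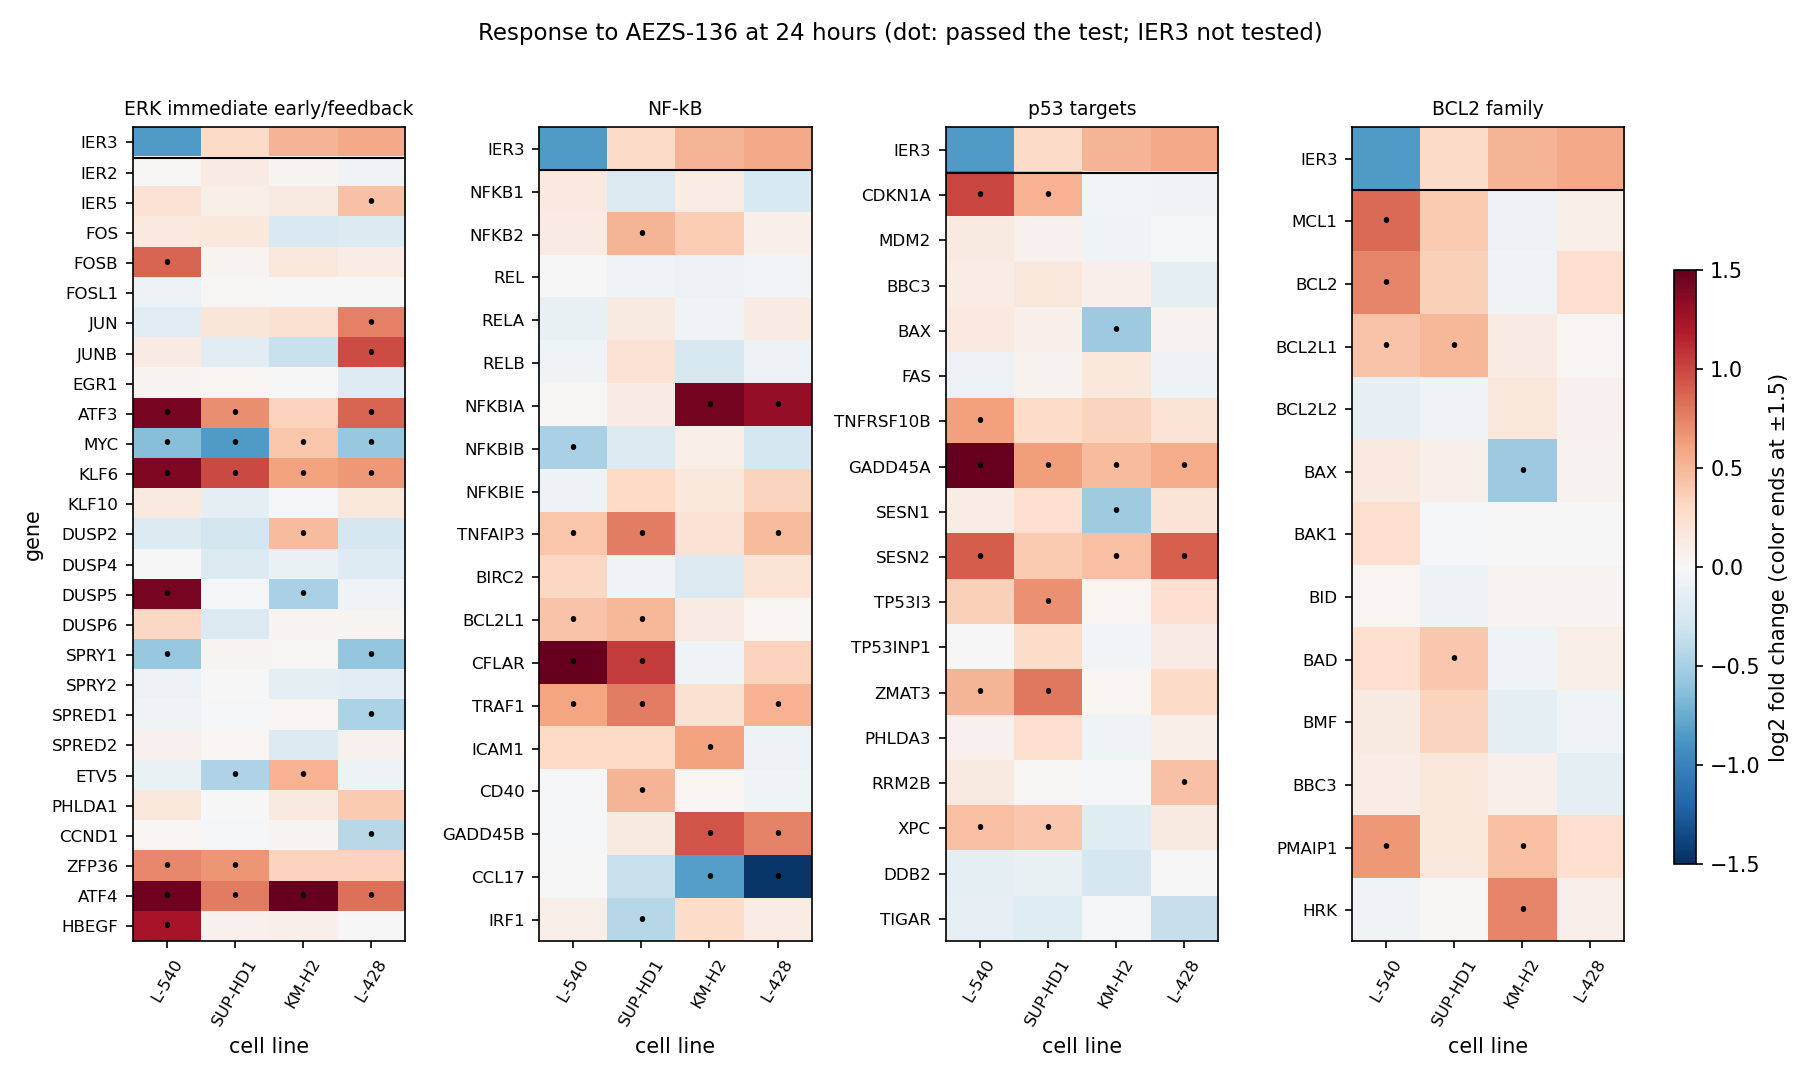
Log2 fold change (AEZS-136 over control) of IER3, in the top row of each panel, and of the tested genes of 4 lists in the 4 lines. Red is higher and blue lower, with the color scale ending at ±1.5, and a dot marks a gene that passed the limma test. NFKBIA and GADD45B are red with dots in KM-H2 and L-428, and CFLAR in L-540 and SUP-HD1.

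Targets of p53 that were called in L-540, SUP-HD1 and L-428 were higher, except for 1 lower gene in L-428 with normexp. Of 17 tested genes, 6 were higher and 0 lower in L-540, 5 and 0 in SUP-HD1, 2 and 2 in KM-H2, and 3 and 0 in L-428. The share called was 35.3%, 29.4%, 23.5% and 17.6%, beside 19.5%, 12.8%, 7.9% and 13.3% of all tested probes, and lay near that background in L-428. CDKN1A, the cell cycle inhibitor p21, rose from 11.70, 11.81 and 11.88 to 12.86, 12.67 and 12.88 in L-540, by 1.005 ± 0.1, and by 0.52 in SUP-HD1. In KM-H2 and L-428 its values were -0.04 and -0.05. GADD45A, a stress sensor, was higher in all 4 lines (1.54, 0.62, 0.47 and 0.55, standard error 0.0967). ZMAT3, a zinc finger protein, was higher in L-540 and SUP-HD1 (0.51 and 0.79, standard error 0.14), with the L-540 call lost under median scaling (0.40, adjusted p = 0.057) and the spline (0.38). Without treated KM-H2 replicate 3, GADD45A in KM-H2 was at 0.36 and was not called.

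SESN2, a sestrin that restrains mTORC1, was higher in L-428 by 0.90 ± 0.0766. It was not detected in L-540 and KM-H2 controls and was at least 1.69-fold and 1.21-fold higher there after treatment. Without treated KM-H2 replicate 1, the log2 fold change in KM-H2 went from 0.45 to 0.37, under the minimum. In SUP-HD1 its change of 0.40 lay just under the minimum and passed under 4 of the 5 other ways of processing the signals.

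In the BCL2 family, 4 of 12 tested genes were higher in L-540, 2 in SUP-HD1 and 2 in KM-H2, and 1 was lower in KM-H2, with 0 calls in L-428 (1 with normexp, BCL2 at 0.57). The share called was 33.3%, 16.7%, 25% and 0%, beside 19.5%, 12.8%, 7.9% and 13.3% of all tested probes. Beside MCL1, the survival gene BCL2 was higher in L-540 (0.73 ± 0.0927). PMAIP1, the BH3-only protein NOXA, was higher in L-540 and KM-H2 (0.65 and 0.45, standard error 0.118), and HRK, another BH3-only gene, was detected in KM-H2 alone and was higher there (0.73 ± 0.104). The PMAIP1 call in KM-H2 was lost without treated replicate 3 (0.31, adjusted p = 0.08). Survival and death genes of the family thus both rose in L-540.

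Of 12 necroptosis genes, 10 were tested, and RIPK1 and PGAM5 were not among them. RIPK3 was detected in L-540 alone, so its response in the other lines was not measured. Of the 10, 3 were called in at least 1 line, a share near the 31.6% of all tested probes. MLKL, which permeabilizes the membrane at the end of that pathway, was lower in all 4 lines, with log2 fold changes of -0.73, -1.10, -0.60 and -1.72 (standard error 0.0917). FADD, an adaptor of death receptors, was lower in L-428 (-0.42 ± 0.0897), and its values in the other lines lay between -0.39 and -0.29. The L-428 call was lost under median scaling and the spline (both -0.39) and without control replicate 3 (-0.36) or treated replicate 1 (-0.34). CFLAR was the remaining call. MLKL therefore moved in 1 direction across the lines, unlike IER3.

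For the F1Fo-ATPase, whose inhibitor IER3 acts on, the list median log2 fold change was below 0 in every line (-0.36, -0.28, -0.19 and -0.31), beside medians of all tested probes between -0.00672 and 0.00676, and it was below 0 under every scaling tried. Of 16 tested genes, 3 were lower in each of the sensitive lines, 2 in L-428 and 1 in KM-H2, and ATP5IF1 in SUP-HD1 was the only one higher. The lower gene in KM-H2 was the inhibitor ATP5IF1 and not a subunit of the enzyme. The share called, 18.8%, 25%, 6.25% and 12.5%, was near that of all tested probes (19.5%, 12.8%, 7.9% and 13.3%) except in SUP-HD1. Median scaling gave 9 lower genes in L-540 and 4 in L-428. ATP5MC1, a subunit of the membrane ring, fell by 1.46 in L-540 and was also lower in SUP-HD1 and L-428 (-0.46 and -0.73, standard error 0.123). ATP5F1A, the α subunit, was lower in L-540 (-0.51 ± 0.0763), and ATP5F1D, the δ subunit, in SUP-HD1 and L-428 (-0.44 and -0.50, standard error 0.101). In SUP-HD1, ATP5MC1 was not called without control replicate 1 (-0.38), nor ATP5F1D without treated replicate 3 (-0.35).

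The neighbors of IER3 on chromosome 6 were taken as the 5 nearest tested protein-coding genes on each side, 10 in all. L-540 had 1 higher and 4 lower, SUP-HD1 1 lower, L-428 1 higher and KM-H2 0 of either kind. The share called was 50% in L-540, beside 19.5% of all tested probes, and 10%, 0% and 10% in the other lines, beside 12.8%, 7.9% and 13.3%. FLOT1, which encodes a lipid raft protein and lies 512 bases from IER3, was higher in L-428 (0.57 ± 0.126, limma adjusted p = 0.0011). Its log2 fold change in L-540 was 0.40, opposite in sign to that of IER3, and lay under the minimum before rounding, while quantile normalization within lines placed it past the minimum. TUBB, a β-tubulin, was lower in L-540 and SUP-HD1 (-0.93 and -0.48, standard error 0.0816). VARS2, a mitochondrial valyl-tRNA synthetase, was lower in L-540 (-1.03 ± 0.0909), and PPP1R18, a phosphatase 1 regulator, was higher there (0.54 ± 0.0839), though not under median scaling (0.39) or the spline (0.38).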

How the data were processed

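RNA from 4 HL cell lines was labeled and hybridized to 24 Illumina arrays, 3 per line and treatment, and samples were grouped by the labels. The dose, the vehicle (DMSO) and which lines are sensitive or resistant came from the study. The authors deposited linear signal intensity for 47323 probes, exported from BeadStudio (version not given in the sources used here) and not normalized, with a deposited detection value, a fraction read as 1 minus the detection p. They also deposited log2 values normalized between arrays, for which the methods state robust spline normalization. Each of these columns matched its own array best, and they served as an alternative.

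Intensities were log2-transformed without background subtraction and quantile-normalized over the 24 arrays. Probes detected on at least 3 arrays (20027) were fitted in limma 3.58.1 (R 4.3.3) with 8 group means. Calls needed a log2 fold change of at least 0.4 in size and a p under 0.05 after Benjamini-Hochberg adjustment over all tested probes. Without background subtraction, changes of dim probes are understated. Probe names came from a platform table (30113 probes with 1 gene name, 8 with several, 17202 with none here), updated through RefSeq. A gene with several tested probes is given by its brightest, except where its likeness to IER3 is described, for which its most similar probe was used. Of the 20027 tested probes, 15231 had 1 gene name. Background shares count all 20027, with dimmer probes of the same gene, whereas lists count 1 probe per named gene. Promoter windows came from RefSeq, none of them for IER3.

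The members, lists and rule for named genes were chosen with earlier results of these data known. Named were IER3, genes it is known to work with, up to 4 genes per list with the largest called changes, and the 5 most like IER3 by each measure. With 3 arrays against 3, an exact two-sided test of a single value cannot go below 0.1. Precision is limited by the number of arrays. Over all tested probes, the standard error of the change had a median of 0.0848. The fit was tested on simulated data. Alternatives were median scaling, a monotone spline, quantile normalization within lines, the series matrix values, normexp with an offset of 16, other filters, the methods' t-test, a fit per line, leaving out each array, calls without a minimum fold change, and a block for the replicate number. Figures were drawn with matplotlib.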

Additional observations from a re-analysis of the deposited data

Results flagged for a closer look

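The response of IER3 in L-428 exceeded that in L-540 by 1.42 on the log2 scale, with all treated arrays above the controls in L-428 and below them in L-540. This difference was not tested, because the gene was chosen with these values known.

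For 16 of the 32 named genes other than those picked for their likeness to IER3, the difference between the classes passed the limma test, as did 6.74% of all tested probes. The difference is the mean response of the resistant lines less the mean response of the sensitive lines, on the log2 scale. It was positive for 5 genes, at 1.31 for NFKBIA, 0.788 for GADD45B, 0.68 for TUBB, 0.424 for ATP5MC1 and 0.42 for HRK, which was detected in KM-H2 alone. It was negative for 11 genes, led by CFLAR at -1.21, CCL17 at -0.981, DUSP5 at -0.979, ATP5IF1 at -0.808 and CDKN1A at -0.806. The others were MCL1 at -0.62, KLF6 at -0.571, GADD45A at -0.571, ZMAT3 at -0.494, BCL2 at -0.454 and ATF3 at -0.449. CCL17 was not detected in L-540. The named genes were chosen with large changes in a line, so these counts say nothing about other genes. The test of a class difference used the spread between arrays and not the spread between the lines of a class. It therefore does not speak for sensitive or resistant lines in general. Lines of a class could differ, as for DUSP5, with log2 fold changes of 1.42 in L-540 and -0.02 in SUP-HD1.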

How the results depend on the processing

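Under the 5 other ways of processing the signals, IER3 was lower with AEZS-136 in L-540 and higher in the other 3 lines. With median scaling the log2 fold change was -0.97 in L-540 and 0.61 in KM-H2, and with the monotone spline -0.97 and 0.62. Background correction by normexp gave 0.71 in L-428, 0.61 in KM-H2 and 0.42 in SUP-HD1. The class difference was 0.94 with median scaling and the spline. Differences from L-540 under median scaling, the spline and normexp were 1.27, 1.27 and 1.32 for SUP-HD1, 1.58, 1.58 and 1.51 for KM-H2, and 1.56, 1.55 and 1.61 for L-428. KM-H2 exceeded SUP-HD1 by 0.32 with the spline. The difference of L-428 from KM-H2 changed sign with median scaling (-0.025) and the spline (-0.032), and the cause was not tested.

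IER3 levels moved by more than 1 SD to 11.15 (L-540 control) and 8.63 (KM-H2 control) with median scaling, to 8.58 (KM-H2 control) and 8.39 (L-428 control) with the spline, and to 10.26 (L-540 AEZS-136) and 8.41 (L-428 control) with normalization within lines. The series matrix values were 10.08 (L-540 AEZS-136), 7.85 and 8.12 (SUP-HD1 control and AEZS-136) and 8.61 (KM-H2 control). With normexp, which lowers dim values, levels were 10.04 (L-540 AEZS-136), 7.24 and 7.67 (SUP-HD1), 8.38 and 8.998 (KM-H2), and 8.10 and 8.82 (L-428).

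Changed probes (L-540 3915, SUP-HD1 2557, KM-H2 1582 and L-428 2665) numbered, in this order of lines, 6612, 4711, 3183 and 5048 with normexp and 7110, 5166, 3638 and 5366 with no minimum fold change. The methods' t-test gave 1438 in L-428, 613 in KM-H2 and 1298 in SUP-HD1. It left 5 p53 targets (10 in limma), 4 BCL2 genes (7) and 0 genes of the immediate early response name (1). That name had 2 with normexp and with no minimum. Necroptosis genes called (3) numbered 5 with the spline and 6 with normexp or no minimum, and F1Fo-ATPase genes (6) 11 with median scaling, 10 with the spline and 12 with no minimum. Of the 5 genes with responses nearest to IER3, 2 were kept with normexp.

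Leaving out 1 array at a time, the IER3 log2 fold change ranged from -0.92 to -0.81 in L-540, 0.25 to 0.30 in SUP-HD1, 0.43 to 0.57 in KM-H2 and 0.51 to 0.63 in L-428, and genes of the immediate early response name from 0 to 1. Of 68 calls of named genes, 11 were lost when 1 array was left out, 4 under another scaling and 17 with the methods' t-test, and 0 changed sign. The values did not show a pairing of the samples by replicate number, though 3 arrays per group cannot exclude it. The correlation of deviations of same-numbered arrays ranged from -0.20 to 0.15 and passed 0.1 in 2 of 12 pairs, and 5 of 12 controls matched their own number best. With the replicate number as a block, 3921, 2561, 1586 and 2672 probes were called and the IER3 log2 fold changes were the same (-0.84, 0.28, 0.51 and 0.57), as the design is balanced. With 1 probe and 3 arrays per group, differences near the standard error of 0.078 are not resolved.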
